A study of Mus musculus with 8 samples.

Results

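The miR-34 and miR-449 family of mouse sperm was described from its 6 members mmu-mir-34a, mmu-mir-34b, mmu-mir-34c, mmu-mir-449a, mmu-mir-449b and mmu-mir-449c. Members were taken by name: a read was counted where its annotation named only a member, with the suffix that numbers gene copies ignored. The 6 miRNAs stand among 752 miRNA names that annotated reads on their own. They took 2032959 of 36915833 miRNA reads (5.51%) over the 8 libraries, in 278 distinct sequences, and all 278 matched the genome. Sequences whose annotation named a member together with another RNA would have been left out by this rule, but 0 such sequences were found. No read was divided between members.

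Small RNA of mature sperm from the caudae epididymides was sequenced from 4 activated and 4 control male mice. Activated mice carried Agrp Cre/+ and control mice Agrp +/+, and both groups received CNO at 1 mg/kg after food had been withdrawn for 1 h. Every mouse had been injected in the arcuate nucleus at 8 weeks of age, 3 weeks earlier, with AAV-hM3Dq-mCherry, a virus that carries an excitatory receptor for CNO. The virus depends on Cre, so that the receptor is made only in AgRP neurons of mice with the Cre allele. These neurons drive feeding, and sperm was taken 4 h after CNO, so that the question was whether a short activation of these neurons is followed by a change of the sperm RNA. The model is limited in that the groups differ in genotype as well as in neuronal activity, since control mice lack the Cre allele and no group without CNO was compared here. Libraries held 14903635, 17489698, 14757501 and 9409491 reads in activated replicates 1 to 4 and 12421068, 23123740, 9297271 and 14348060 reads in control replicates 1 to 4.

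A miRNA hairpin gives a 5p and a 3p strand, and the strand loaded into an Argonaute protein recognises its targets mainly through the seed, bases 2 to 8 from its 5′ end. The 5p strands of the miR-34 and miR-449 genes share a seed and are known to act redundantly in the differentiation of multiciliated cells and of male germ cells, and mice without both miR-34b/c and miR-449 are infertile. miR-34a is a target of p53 made in many somatic tissues, whereas miR-34b, miR-34c and miR-449 are characteristic of testis and ciliated epithelium, and miR-34c is known as an abundant miRNA of mature sperm.

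Reference sequences were matched by miRNA name to RefSeq (GRCm38.p6), which gave 9 mature entries for 5 of the 6 members. The 4 entries of 5p strands are shown for the seed they have in common, in capitals, all written 5′ to 3′.
mmu-miR-34a-5p: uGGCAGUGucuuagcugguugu
mmu-miR-34b-5p: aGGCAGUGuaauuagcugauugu
mmu-miR-449a-5p: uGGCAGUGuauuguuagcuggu
mmu-miR-449c-5p: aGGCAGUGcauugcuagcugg
Compared base by base from the 5′ end, miR-449a-5p and miR-449c-5p were identical at 18 of 21 positions, and miR-34a-5p and miR-449a-5p at 15 of 22.

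The 3p strands of miR-34b and miR-34c are shown because they carried a large part of the reads and share another seed. They were identical at 17 of 22 positions.
mmu-miR-34b-3p: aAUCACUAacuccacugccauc
mmu-miR-34c-3p: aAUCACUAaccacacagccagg
Reads whose 5′ end lay 1 base away from the reference carry a shifted seed, again in capitals. The most abundant such sequences are given for the 3 strands where that start was common, as deposited but in RNA letters.
miR-34b-3p, 1 base later: aUCACUAAcuccacugccauc
miR-34b-5p, 1 base earlier: uAGGCAGUguaauuagcugauugu
miR-449c-3p, 1 base later: aGUUGCUAgcugcacuacccu

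The genes lie at 3 loci (GRCm38). Mir34b (chr9:51103562-51103645) and Mir34c (chr9:51103034-51103110) lie on the minus strand of chromosome 9 with 451 bases between them, in an intron of Btg4, which is read from the opposite strand. Mir449c (chr13:113035983-113036091), Mir449b (chr13:113037419-113037498) and Mir449a (chr13:113037534-113037624) lie on the plus strand of chromosome 13 within introns of Cdc20b on the same strand, with 1327 bases between Mir449c and Mir449b and 35 between Mir449b and Mir449a. Mir34a (chr4:150068454-150068555) lies on the plus strand of chromosome 4 and overlaps an exon of the unclassified transcript model Gm37795.

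The libraries fell into 2 sets that do not follow the groups. Mitochondrial rRNA made up between 1.80% and 2.24% of reads in activated replicates 1 and 4 and control replicates 2 and 4, called poor in mitochondrial rRNA below, and between 7.11% and 8.35% in activated replicates 2 and 3 and control replicates 1 and 3, called rich. Each set holds 2 mice of each group, and differences between groups within a set were not tested. The sets also differed in miRNAs as a class, which made up 33.2% to 47.1% of reads in the poor and 17.8% to 28.9% in the rich libraries, so that values per reads of the library and per miRNA reads are told apart below. Control replicate 4 stood apart in another way. Muscle and vessel miRNAs (5 of 5 listed were found, 3 of them above the filter on low counts) summed to 36472 RPM, reads per 1000000 reads of the library, in control replicate 4, against 255, 445 and 307 RPM in control replicates 1 to 3. In activated replicates 1 to 4 this sum was 524, 258, 180 and 374 RPM. By mean level over the 8 libraries the most abundant gene of the list was miR-143, a miRNA of smooth muscle, with 17171 RPM in control replicate 4, where miR-145a had 17715 RPM, and at most 332 RPM elsewhere.

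Epithelial miRNAs (7 of 7 found) summed to 19420 RPM in control replicate 4, against 1364, 1825 and 2732 RPM in control replicates 1 to 3 and 3476, 1166, 1085 and 1196 RPM in activated replicates 1 to 4, with miR-200c as the most abundant. Fold changes that moved most without control replicate 4 are therefore also given without it. The X-linked miR-506 family of testis and sperm, by contrast, was abundant in all 8 libraries (18 of 19 found, miR-509 at 0). It summed to 40658, 28397, 19481 and 38663 RPM in activated replicates 1 to 4 and 22443, 33609, 14337 and 30634 RPM in control replicates 1 to 4, led by miR-741, so that germ cell miRNAs marked every library as the label sperm states. Its sum was higher in each library poor in mitochondrial rRNA (30634 to 40658 RPM) than in each rich one (14337 to 28397 RPM).

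miR-34b and miR-34c were the leading members. miR-34b stood at 6686, 7752, 9792 and 9481 RPM in activated replicates 1 to 4 and at 9498, 7071, 8622 and 7653 RPM in control replicates 1 to 4. Its 8 values spanned 1.46-fold from the lowest to the highest, and the groups overlapped. miR-34c stood at 13648, 7679, 5482 and 10571 RPM in the activated replicates and at 5438, 10616, 4350 and 6670 RPM in the control replicates. These values spanned 3.14-fold and the groups overlapped, and the 3 highest, 2 activated and 1 control, were libraries poor in mitochondrial rRNA.

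By mean level over the 8 libraries miR-34b (8319 ± 1195 RPM, SD, n = 8) and miR-34c (8057 ± 3239 RPM, SD, n = 8) were the fifth and the sixth most abundant of the 752 miRNA names, after miR-16, miR-191, miR-15b and let-7a. They did not differ beyond their spread, and miR-34c was above miR-34b in 3 of 8 libraries. let-7a (8329 RPM) lay next to them.

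miR-449a, which shares the 5p seed with miR-34, came after them. It stood at 2239, 881, 524 and 1225 RPM in activated replicates 1 to 4 and at 562, 1371, 361 and 810 RPM in control replicates 1 to 4. It was below miR-34b and below miR-34c in 8 of 8 libraries, and again the groups overlapped while activated replicate 1 and control replicate 2 were the highest of their groups. Its rank among miRNA names went from 21 to 61 between libraries.

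The other members were rare. miR-34a, the p53 target, stood at 32.9, 8.46, 16.1 and 8.08 RPM in activated replicates 1 to 4 and at 9.10, 10.8, 6.88 and 62.7 RPM in control replicates 1 to 4. The highest value was that of control replicate 4, the library with the high sums of muscle, vessel and epithelial miRNAs, and the second highest that of activated replicate 1, whose epithelial sum (3476 RPM) was the highest among the activated libraries. Other libraries went the other way. Control replicate 3, with an epithelial sum of 2732 RPM, had the lowest miR-34a value (6.88 RPM). Activated replicate 3 had the lowest epithelial sum (1085 RPM) and 16.1 RPM of miR-34a. The part of these cell types in the miR-34a level was not tested.

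miR-449b lay between 5.72 and 11.4 RPM and miR-449c between 2.42 and 4.995 RPM over the 8 libraries, although both are encoded within the locus of miR-449a. Over all libraries the mean of miR-449a was 997 RPM, against 7.89 RPM for miR-449b and 4.02 RPM for miR-449c. miR-449b exceeded miR-449c in 8 of 8 libraries, whereas miR-34a and miR-449b did not differ beyond their spread and miR-34a was the higher of the pair in 6 of 8. Since miRNAs are ligated and amplified with unequal efficiency, the order describes reads and not molecules.

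**Figure D1:**
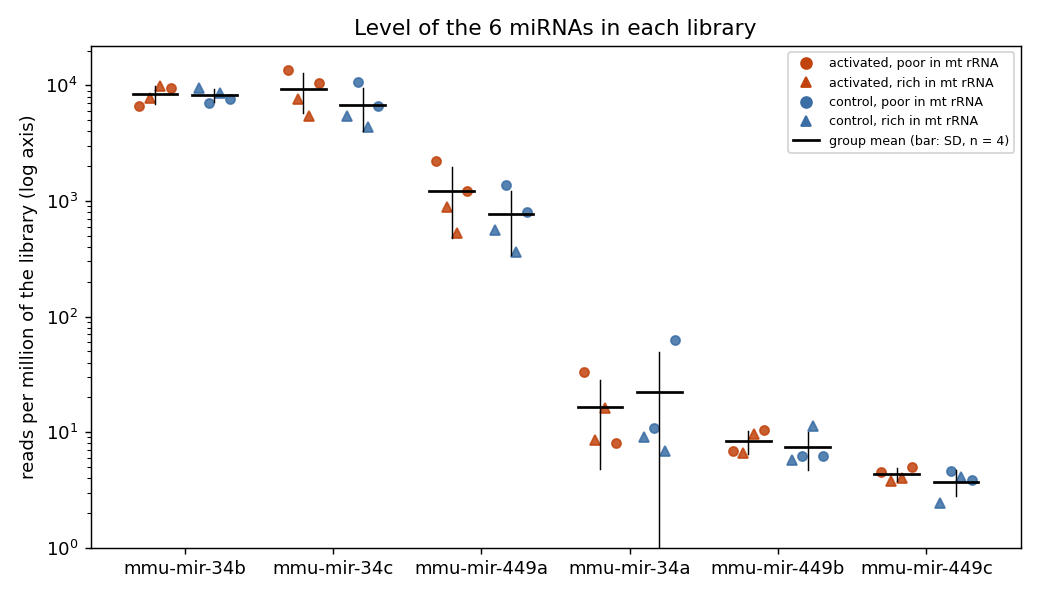
RPM (reads per 1000000 reads of the library, log axis) of the 6 miRNAs in each of the 8 libraries; points are libraries, circles those poor and triangles those rich in mitochondrial rRNA, horizontal lines the group means and vertical bars the SD (n = 4 per group), with the bar of miR-34a in control sperm running to the lower edge because the SD exceeds the mean. miR-34b and miR-34c lie between 4350 and 13648 RPM, miR-449a between 361 and 2239 RPM, and the remaining members below 63 RPM, with control replicate 4 the highest for miR-34a.

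The family as a sum amounted to 22618, 16331, 15828 and 21300 RPM in activated replicates 1 to 4 and to 15515, 19079, 13356 and 15206 RPM in control replicates 1 to 4. As a share of miRNA reads it took 5.98%, 5.65%, 6.90% and 5.69% in the activated libraries and 5.97%, 5.75%, 7.49% and 3.23% in the control libraries. The groups overlapped on both scales, and the lowest share belonged to control replicate 4, where miRNAs as a class were 47.1% of reads.

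The next comparison asked whether members differed between activated and control sperm. Reads were summed by RNA species (each miRNA name, tRNA end, rRNA or other RNA) and tested across all 587 species with at least 50 counts in at least 4 libraries, and a call needed a log2 fold change beyond 1 besides an adjusted p under 0.05. All 6 members passed the filter, and edgeR called 0 of them (0% of all species were called; the unadjusted p was under 0.05 for 10 higher and 38 lower species, none of them a member). DESeq2 also called 0 of the 6, against 3 species in all (0.511%): miR-451a, the miRNAs miR-486a and miR-486b counted together, and 5′ fragments of tRNA-Glu-TTC, of which the last 2 are named here because of their values.

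miR-34c averaged 9345 ± 3546 RPM (SD, n = 4) in activated sperm, against 6769 ± 2734 RPM (SD, n = 4) in the control group. edgeR gave a log2 fold change of 0.45 (SE 0.32, adjusted p = 0.622). miR-449a averaged 1217 ± 739 RPM (SD, n = 4) in activated sperm, against 776 ± 437 RPM (SD, n = 4) in the control group, with a log2 fold change of 0.59 (SE 0.46, adjusted p = 0.644 by edgeR). In both miRNAs the values of the groups overlapped. With 1 library left out the log2 fold change of miR-34c went from 0.28 (without control replicate 3) to 0.71 (without control replicate 2), and that of miR-449a from 0.26 (without activated replicate 1) to 0.97 (without control replicate 2). DESeq2 with fold changes shrunken by apeglm gave lower values, 0.20 for miR-34c and 0.086 for miR-449a. Within the libraries poor in mitochondrial rRNA the activated to control ratio of mean RPM was 1.40 for miR-34c and 1.59 for miR-449a, and within the rich libraries 1.34 and 1.52, from 2 mice against 2 and untested. With the set as a covariate the log2 fold changes were 0.49 for miR-34c and 0.66 for miR-449a, with unadjusted p of 0.0401 and 0.0410 and each with an adjusted p of 0.421 by edgeR, and over the 17 alternative fits their adjusted p ranged from 0.335 to 0.853 and from 0.335 to 0.870.

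miR-34b averaged 8428 ± 1467 RPM (SD, n = 4) in activated sperm, against 8211 ± 1070 RPM (SD, n = 4) in the control group. The log2 fold change was 0.10 (SE 0.26, adjusted p = 0.833 by edgeR), and it turned to -0.092 without activated replicate 3. Scaled to miRNA reads instead of all reads, the activated to control ratio went from 1.03 to 0.919, so that miR-34b had no direction that held across scalings. Within the libraries poor in mitochondrial rRNA the means were 8084 RPM in activated against 7362 RPM in control sperm, and within the rich ones 8772 against 9060 RPM, again with 2 mice against 2 and untested.

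miR-34a averaged 16.4 ± 11.6 RPM (SD, n = 4) in activated sperm, against 22.4 ± 27.0 RPM (SD, n = 4) in the control group. Its log2 fold change of -0.56 (SE 0.80, adjusted p = 0.718 by edgeR) rested on a single library: without control replicate 4 it was 0.91 (adjusted p = 0.443), where the range over alternative fits was 0.443 to 0.965. miR-449b and miR-449c differed by 0.24 (SE 0.33) and 0.23 (SE 0.27) on the log2 scale, with adjusted p of 0.712 and 0.679 by edgeR. With 1 library left out miR-449b went from 0.053 (without activated replicate 3) to 0.52 (without control replicate 3) and miR-449c from 0.064 (without control replicate 1) to 0.33 (without control replicate 2), and the ratio of miR-449b went from 1.13 to 0.940 when scaled to miRNA reads.

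Taken as a list, 5 of 6 members had a positive log2 fold change and their median was 0.23, beside 270 of 587 species with a positive value and a median of -0.068. Without control replicate 4 the value was positive in 6 of 6 members with a median of 0.40, beside 312 of 574 species and a median of 0.10. The median of the members fell to 0.12 without activated replicate 3 (4 of 6 positive), 0.14 without activated replicate 4 and 0.15 without control replicate 1. The X-linked miR-506 family, given as other germ cell miRNAs, had a positive value in 16 of its 16 tested members with a median of 0.36, and 0 were called by edgeR or DESeq2, with 0 at an unadjusted p under 0.05. The median was 0.54 without control replicate 4, with a positive value in 16 of 16. miR-741 itself had a log2 fold change of 0.18 (SE 0.32, adjusted p = 0.758 by edgeR).

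**Figure D2:**
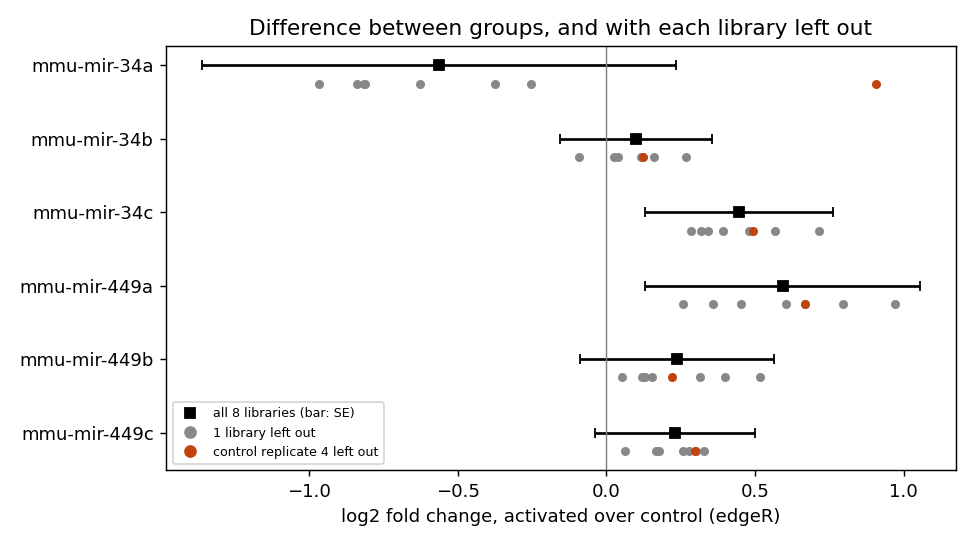
Log2 fold change of each member, activated over control, from edgeR; black squares are the fit with 8 libraries and bars its SE, grey points are fits without 1 library each, and red points those without control replicate 4. miR-34a moves from -0.56 to 0.91 without control replicate 4, miR-34b lies at 0.10 and reaches -0.092 without activated replicate 3, and the other 4 members keep a positive value in each of the fits shown.

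Other miRNAs linked to p53 were taken as a list for comparison with miR-34a (9 of 9 found, 8 tested). edgeR and DESeq2 called 0 of them, while edgeR gave an unadjusted p under 0.05 to 0 higher and 3 lower ones, 4 of 8 had a positive log2 fold change and the median was -0.24. The median was 0.47 without control replicate 4, with a positive value in 6 of 8. The 3 lower ones, miR-143, miR-145a and miR-200c, also stand in the muscle and vessel or the epithelial list. The sum was 125391, 84994, 53576 and 113522 RPM in activated replicates 1 to 4 and 68017, 112002, 36451 and 145610 RPM in control replicates 1 to 4, led by miR-16 with 34644 to 122315 RPM (log2 fold change 0.21, SE 0.38, adjusted p = 0.758 by edgeR). In control replicate 4 miR-16 made up 102171 RPM of this sum, and miR-145a, miR-143 and miR-200c stood at 17715, 17171 and 7487 RPM.

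Of the lists of cells that sperm preparations can hold, all 7 tested epithelial and all 3 tested muscle and vessel miRNAs had a negative log2 fold change, with medians of -2.16 and -4.70. Without control replicate 4 the medians were -0.072 and 0.11, with a positive value in 2 of 7 epithelial and 2 of 3 muscle and vessel miRNAs. By edgeR 0 of either list were called, with 4 and 2 lower at an unadjusted p under 0.05, and DESeq2 called 0. Tested by miRNA and length, as described further below, DESeq2 called miR-200c lower at 21, 22 and 23 nt. The log2 fold changes were -1.71, -1.37 and -1.43. Leading genes were miR-200c (log2 fold change -2.16, SE 0.86, adjusted p = 0.554 by edgeR) and miR-143 (-4.70, SE 1.72, adjusted p = 0.554 by edgeR). Erythrocyte miRNAs (4 of 4 found, 2 tested, median -1.41) summed to 201, 47.9, 64.6 and 58.3 RPM in activated replicates 1 to 4 and 126, 383, 565 and 285 RPM in control replicates 1 to 4. edgeR called 0, with 1 lower at an unadjusted p under 0.05, and DESeq2 called 1, the most abundant, miR-451a (log2 fold change -1.65, SE 0.53, adjusted p = 0.0164). Only 1 erythrocyte miRNA was tested when control replicate 4 was left out, with a log2 fold change of -1.99. Reads that named miR-486a and miR-486b together stayed out of this sum.

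Leukocyte miRNAs (5 of 5 found, 4 tested) summed to 979, 432, 706 and 623 RPM in activated replicates 1 to 4 and 410, 539, 394 and 879 RPM in control replicates 1 to 4. Of the 4 tested, 3 had a positive log2 fold change, the median was 0.28, and edgeR and DESeq2 called 0, with 0 at an unadjusted p under 0.05 by edgeR; the leading gene was miR-142a (0.53, SE 0.29, adjusted p = 0.559 by edgeR). The miRNA with a negative value was miR-146a (-1.35, SE 0.60, adjusted p = 0.559 by edgeR). Tested by miRNA and length, DESeq2 called miR-146a lower at 23 and 24 nt. The leukocyte median was 0.66 without control replicate 4, with a positive value in 3 of 4. The part of any of these cell types in the levels of the 6 members was not tested, and in such bulk RNA fewer cells of a type and less RNA per cell cannot be told apart.

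The members differed in which strand was kept. miR-34c gave mostly 5p reads, at 85.4%, 73.9%, 66.4% and 75.5% of its reads in activated replicates 1 to 4 and 62.9%, 80.0%, 57.0% and 72.9% in control replicates 1 to 4. miR-34b, its neighbour on the chromosome, gave mostly 3p reads, with 5p reads between 0.491% and 4.10% over the 8 libraries. The 2 genes of this locus were thus read from opposite strands of their hairpins, and the shared 5p seed came mainly from miR-34c. miR-449a was nearly all 5p (99.9% to 100%), as was miR-34a (93.2% to 99.1%), while miR-449c gave mostly 3p reads (5p between 0% and 17.0%). Its 32 5p reads were counted by the side of the hairpin they lie on, and 18 of them began at the reference base.

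In RPM the 5p strands of miR-34b and miR-34c moved between libraries, and their 3p strands moved less. miR-34c-5p stood at 11655, 5677, 3640 and 7980 RPM in activated replicates 1 to 4 and 3423, 8496, 2478 and 4865 RPM in control replicates 1 to 4. miR-34b-5p stood at 274, 86.6, 65.3 and 152 RPM in the activated and 50.7, 132, 42.4 and 82.3 RPM in the control libraries. For both strands activated replicate 1 was the highest and control replicate 3 the lowest of the 8, and the groups overlapped. miR-34c-3p, in contrast, lay between 1805 and 2591 RPM, and miR-34b-3p between 6413 and 9727 RPM. As a share of miRNA reads the contrast was smaller, with 2.98-fold from the lowest to the highest library for miR-34c-5p, 2.74-fold for miR-34c-3p, 4.14-fold for miR-34b-5p and 2.99-fold for miR-34b-3p.

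Levels were also compared between the mitochondrial rRNA sets. Libraries poor in mitochondrial rRNA averaged 8249 RPM of miR-34c-5p against 3805 RPM in the rich ones, 160 against 61.2 RPM of miR-34b-5p, and 1411 against 582 RPM of miR-449a-5p. On the same scale miR-34c-3p averaged 2127 against 1933 RPM and miR-34b-3p 7563 against 8855 RPM. As a share of miRNA reads the 5p strands stood on average at 2.20% against 1.56% (miR-34c-5p), 0.0425% against 0.0254% (miR-34b-5p) and 0.376% against 0.238% (miR-449a-5p), and the 3p strands were lower in the poor libraries, at 0.560% against 0.830% for miR-34c-3p and 1.97% against 3.83% for miR-34b-3p. The contrast of 3p strands between the sets thus depended on the scale. In RPM the ranges of the sets overlapped for each of the 3 5p strands, with activated replicate 2 of the rich set above control replicate 4 of the poor set. What separates the sets was not tested, and these values are a description of 4 libraries against 4 that were divided by their mitochondrial rRNA.

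**Figure D3:**
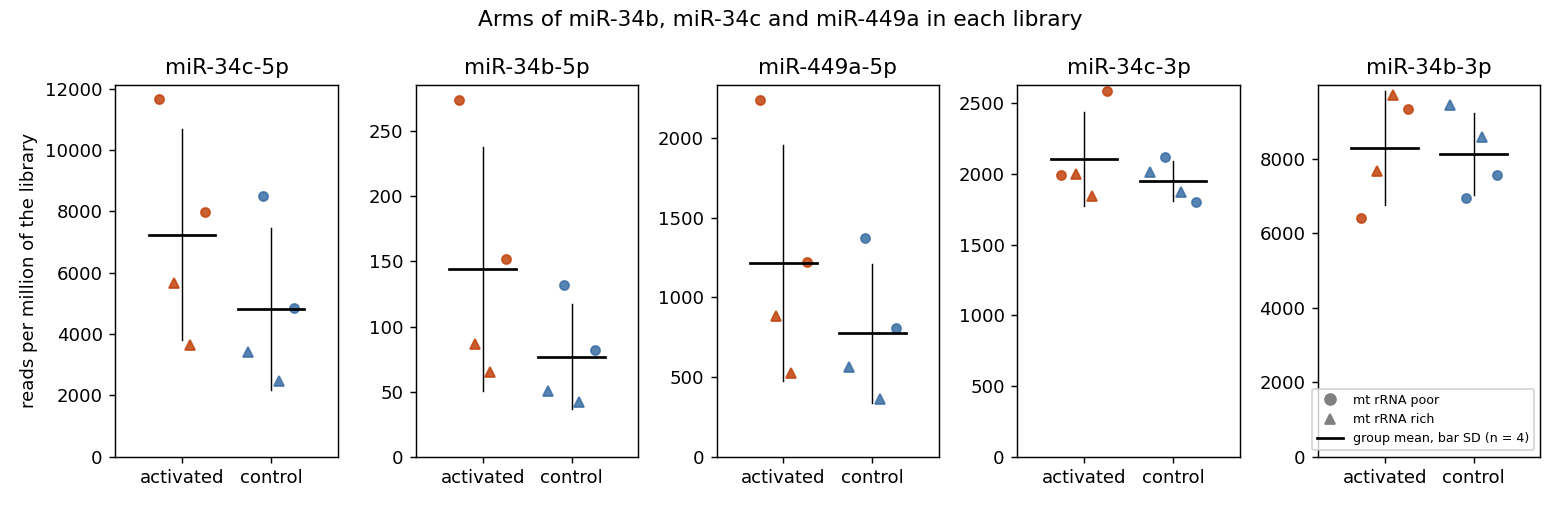
RPM for 5 strands in each of the 8 libraries (linear axes from 0, scaled to each strand); circles are libraries poor and triangles libraries rich in mitochondrial rRNA, horizontal lines group means and vertical bars the SD (n = 4 per group). In RPM the 3 5p strands are higher on average in the poor libraries (8249 against 3805 RPM for miR-34c-5p), while miR-34c-3p stays between 1805 and 2591 RPM.

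Among the 5 abundant strands of miR-34b, miR-34c and miR-449a, those with the same position in the hairpin resembled each other more than strands of the same gene did, whereas miR-34a, mostly 5p, is compared further below. As a measure of likeness the SD over the 8 libraries of the log2 ratio between 2 strands was used, where a small SD means a steady ratio; this comparison of strands was added after the values had been seen. The SD was 0.13 between miR-34c-5p and miR-449a-5p, which lie on different chromosomes, 0.19 between miR-34b-5p and miR-449a-5p, 0.22 between miR-34b-5p and miR-34c-5p and 0.26 between miR-34b-3p and miR-34c-3p. Between the 2 strands of 1 hairpin it was 0.69 for miR-34c and 1.05 for miR-34b.

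The share of 5p against 3p reads was tested with limma for miRNAs with a known hairpin, together with the share of reads at the reference 5′ end and the share at full length. Of 445 such ratios 0 were called (0% called; the unadjusted p was under 0.05 for 11 higher and 8 lower ratios), and of the 12 that belong to miR-34a, miR-34b, miR-34c and miR-449a 0 were called. The log2 difference in the 3p to 5p ratio was -0.82 (SE 0.64) for miR-34b and -0.51 (SE 0.43) for miR-34c, each with an adjusted p of 0.986 by limma. With 1 library left out the first went from -1.21 (without activated replicate 3) to -0.32 (without activated replicate 1) and the second from -0.80 (without control replicate 2) to -0.22 (without activated replicate 1). Among the 12 the median was -0.045, beside -0.023 over all 445. Its sign depended on single libraries. The median was -0.13 without activated replicate 2 (4 of 12 positive) and 0.049 without activated replicate 1 (8 of 12 positive). miR-449b and miR-449c were not tested in this way.

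Strands differed in their length profile. Reads of 23 nt made up 89.5% ± 0.6 of miR-34c-5p (SD, n = 8) and reads of 24 nt 6.16% ± 0.60 (SD, n = 8). miR-34b-3p was mostly 22 nt (77.0% ± 1.1, SD, n = 8) with 17.4% ± 0.9 at 21 nt (SD, n = 8). miR-34c-3p was more spread, with 64.1% ± 1.6 at 22 nt, 19.9% ± 0.8 at 23 nt and 12.4% ± 1.1 at 21 nt (SD, n = 8 each). The strands of a hairpin thus peaked at different lengths in miR-34c, 23 nt for 5p and 22 nt for 3p.

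miR-449a-5p had the widest tail of short reads, with 61.0% ± 3.0 at 22 nt and 10.7% ± 1.5, 10.7% ± 1.5 and 12.1% ± 0.7 at 19, 20 and 21 nt (SD, n = 8 each). As 99.9% of its reads began at the reference base, the tail came from the 3′ end, and the seed was the same at every length. miR-34b-5p peaked at 23 nt (46.7% ± 4.9, SD, n = 8) and miR-34a-5p was divided between 22 nt (42.9% ± 8.4, SD, n = 8) and 23 nt (37.7% ± 7.9, SD, n = 8). miR-449b was mostly 21 nt (79.4% ± 3.0, SD, n = 8).

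**Figure D4:**
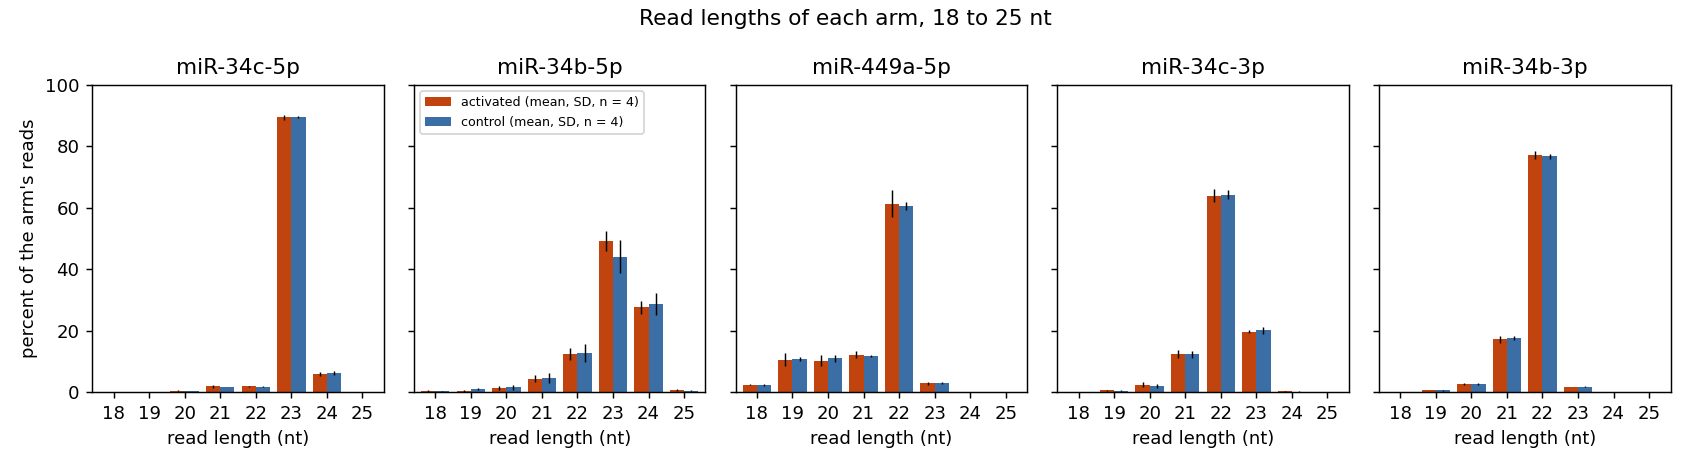
Percent of the reads of each strand at lengths of 18 to 25 nt; bars are the means of activated and control libraries and black lines the SD (n = 4 per group). The 23 nt bar of miR-34c-5p reaches 89.5% in activated and 89.6% in control sperm, and miR-449a-5p shows a shoulder from 19 to 21 nt in both groups.

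Tested by miRNA and length over 764 combinations, 0 of the 28 combinations that belong to the family were called by edgeR (0% called; the unadjusted p was under 0.05 for 9 higher and 84 lower combinations, none of them a member), and 0 by DESeq2, against 13 in all (1.7%). Here miRNA reads alone set the scale. miR-34c at 23 nt had a log2 fold change of 0.31 (SE 0.25, adjusted p = 0.719 by edgeR), miR-34b at 22 nt -0.18 (SE 0.38, adjusted p = 0.915 by edgeR) and miR-449a at 22 nt 0.38 (SE 0.31, adjusted p = 0.719 by edgeR). Of the 28, 16 were positive with a median of 0.15, beside 336 of 764 and a median of -0.043. The median of the family fell to 0.062 without activated replicate 1 (19 of 27 positive, all combinations 0.023) and to 0.074 without activated replicate 3 (14 of 26 positive), and without control replicate 2 the unadjusted p was under 0.05 for 7 of 26, the lowest adjusted p was 0.151 and 0 were called. All 6 tested lengths of miR-449a were positive, and miR-34b was negative at 8 of its 10 tested lengths.

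The 5′ end sets the seed, and it was fixed in some strands and divided in others. Reads of miR-34c-5p began at a single base in 99.8% of cases and those of miR-449a-5p in 99.9%. miR-34b-3p began at the reference base in 81.4% of its reads and 1 base later in 17.2%, and this second share lay between 16.2% and 17.7% over the 8 libraries. miR-34c-3p, which has the same seed, began 1 base later in only 3.42% of its reads (3.14% to 3.72%). The shifted share of miR-34b-3p overlapped between the groups (17.0% ± 0.6 in activated and 17.5% ± 0.2 in control sperm, SD, n = 4 each). The share of miR-34c-3p at the reference base did not overlap (95.63% ± 0.04 against 95.95% ± 0.20, SD, n = 4 each). It was 1 of 31 start shares, and the only one without overlap, where 2 of the 70 divisions of 8 libraries into 4 and 4 separate them fully. This difference was not tested, since the start ratios were tested for the strand with more reads alone.

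miR-34b-5p was divided most evenly, with 49.6% of reads at the reference base and 50.4% 1 base earlier (44.7% to 57.8% over the 8 libraries). Its reads thus carried the common seed GGCAGUG and the seed AGGCAGU in near equal amounts. Reads of miR-449c-3p began 1 base after the reference in 78.4% and at the reference in 7.34%, from 436 reads over all libraries.

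**Figure D5:**
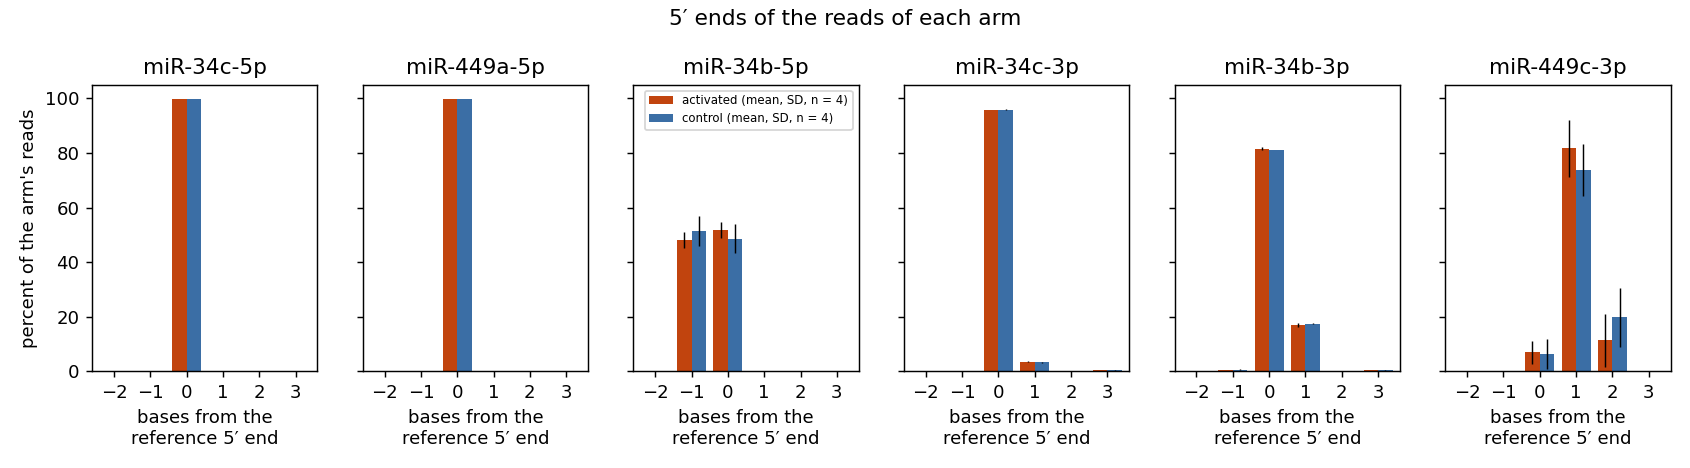
Percent of the reads of each strand that begin at each base, counted from the reference 5′ end (for miR-34c-5p from the start with most reads); bars are group means and black lines the SD (n = 4 per group). miR-34c-5p and miR-449a-5p begin at a single base in 99.8% and 99.9% of reads, miR-34b-3p has 17.2% of reads 1 base later, and miR-34b-5p is divided between the reference base and the base before it.

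Read by seed, the family delivered mainly 2 of them. The seed AUCACUA of miR-34b-3p and miR-34c-3p took 31.4%, 50.1%, 61.6% and 47.2% of the family's reads in activated replicates 1 to 4 and 62.0%, 40.2%, 65.5% and 51.8% in control replicates 1 to 4. The common 5p seed GGCAGUG took 62.0%, 40.4%, 26.6% and 43.5% in the activated and 25.8%, 52.0%, 21.4% and 37.9% in the control libraries. GGCAGUG was ahead in activated replicate 1 and control replicate 2 and AUCACUA in the other 6 libraries, so that the leading seed changed between mice of the same group. The shifted seed UCACUAA came next with 5.34% to 11.5%, and AGGCAGU held 0.172% to 0.735%. Of all reads with a miRNA annotation, those with the seed AUCACUA or UCACUAA belonged to members in 100% of cases, and those with GGCAGUG in at least 99.9%.

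Of the 278 sequences 48 passed the filter of at least 50 counts in at least 4 libraries and were tested among 12077 fragments of all kinds. Of these 48, 22 belonged to miR-34b, 17 to miR-34c, 6 to miR-449a, 2 to miR-34a, 1 to miR-449b and 0 to miR-449c. edgeR called 0 of the 48, against 61 of 12077 (0.505%), and DESeq2 called 0, against 240 (1.99%); at an unadjusted p under 0.05 there were 0 of the 48 by either tool. Among reads that match the genome, as all 278 sequences do, edgeR called 0 of 6761 fragments. In the fits of all fragments without 1 library it called 0 in 6 of 8. Of the 48 fragments 35 had a positive log2 fold change and the median was 0.15, beside 6165 of 12077 and a median of 0.014. Without activated replicate 4 it was 23 of 46 with a median of 0.026, without activated replicate 1 26 of 46 with a median of 0.020, and without control replicate 4 41 of 47 with a median of 0.34.

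Fragments were also grouped by strand, and differences between strands were not tested. All 7 fragments of miR-34c-5p, 4 of miR-34b-5p, 6 of miR-449a-5p and 10 of miR-34c-3p had a positive log2 fold change by edgeR, whereas 7 of the 18 fragments of miR-34b-3p and 0 of the 2 of miR-34a-5p had one. Medians were 0.55 for miR-34c-5p, 0.95 for miR-34b-5p, 0.65 for miR-449a-5p, 0.14 for miR-34c-3p, -0.064 for miR-34b-3p and -0.67 for miR-34a-5p. When control replicate 4 was left out, 2 of 2 fragments of miR-34a-5p were positive (median 1.14) and 12 of 18 of miR-34b-3p (median 0.064), and the median of miR-34c-3p was 0.30. Fragments of a strand overlap and come from the same libraries, so that they are not separate observations, and the lowest adjusted p among the 48 was 0.886 (edgeR). With the mitochondrial rRNA set as a covariate 6 of the 48 had an unadjusted p under 0.05, the lowest adjusted p was 0.199, and 0 were called.

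The most abundant single sequence of the family was the 23 nt form of miR-34c-5p, with 655902 reads over the 8 libraries and 2209 to 10315 RPM (log2 fold change 0.55, SE 0.55, adjusted p = 0.999 by edgeR). Next came the 22 nt reference form of miR-34b-3p with 652779 reads and 4429 to 7044 RPM (-0.026, SE 0.28, adjusted p = 0.999 by edgeR). The reference forms were also the leading sequences of miR-34c-3p (1115 to 1585 RPM), miR-449a-5p (222 to 1235 RPM), miR-34b-5p (17.8 to 116 RPM) and miR-34a-3p (33 reads). For miR-34b-5p the reference form had the lowest adjusted p of the family's leading forms (log2 fold change 1.03, SE 0.59, adjusted p = 0.886 by edgeR), from 64.6 ± 37.4 RPM in the activated against 31.1 ± 16.2 RPM in the control group (SD, n = 4 each).

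In other strands the reference form was not the leading one. miR-34a-5p had 901 reads of a 23 nt form and 865 of the 22 nt reference form. The 21 nt form of miR-449c-3p shown above, which begins 1 base later, had 271 reads, against 24 of the reference form, and the leading form of miR-449a-3p was 21 nt (19 reads, against 13 of the reference form). The reference form of miR-449c-5p had 6 reads, while the sequence with most reads on that side of the hairpin (19 nt, 8 reads) ended before the first base of the 5p strand. For miR-449b, which has no reference entry, the leading form was 21 nt with 687 reads.

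The miRNAs outside the family whose pattern over the 8 libraries was most like that of a member were found with the same measure, the SD of the log2 ratio, among 241 miRNAs that passed the filter. For miR-34c these were miR-883a (0.10), miR-880 (0.12) and miR-20a (0.12), where the median SD was 0.53. For miR-34b they were miR-92a (0.095), miR-423 (0.15) and miR-1306 (0.18), with a median of 0.75, and for miR-449a they were miR-466c (0.13), miR-466n (0.14) and miR-301a (0.16), with a median of 0.72. miR-34c and miR-34b, from 1 locus, had an SD of 0.72 to each other, whereas miR-34c and miR-449a had 0.30. These are totals over both strands, and miR-34c gave mostly 5p but miR-34b mostly 3p reads. Between like strands of miR-34b and miR-34c the SD was 0.22 (5p) and 0.26 (3p), as given above.

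miR-34a followed other miRNAs than its relatives. Its nearest were miR-3068 (0.35), miR-24 (0.38) and miR-21a (0.41), with a median of 1.03, and its SD to the other 5 members lay between 1.14 and 1.33. Leaving out control replicate 4, these 3 stood at 0.37, 0.41 and 0.38, the median at 0.76 and the SD to the other members between 0.69 and 0.96. For the rare members, where counting noise is large, the nearest outside the family were miR-328 (0.32), miR-3072 (0.34) and miR-1306 (0.35) for miR-449b and miR-466f (0.30), miR-669p (0.31) and miR-30c (0.31) for miR-449c. Within the family the SD of miR-449b went from 0.34 (to miR-34b) to 1.33 (to miR-34a). That of miR-449c went from 0.36 (to miR-449b) to 1.15 (to miR-34a).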

How the data were processed

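Sperm small RNA libraries of 4 activated and 4 control mice, 1 per mouse, were compared. The authors trimmed reads, kept 15 to 45 nt, left duplicates in and matched them without mismatch to mm10 and to small RNA databases with SPORTS1.1, and deposited raw read counts per distinct sequence. From these counts RPM of the library total were computed. Members and lists were chosen with earlier results of these data known.

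Counts per RNA species, per miRNA and length and per fragment, with at least 50 in at least 4 libraries, were tested with edgeR 4.0.16 (TMM, quasi-likelihood; SE from log2 fold change and F statistic) in R 4.3.3, with Benjamini-Hochberg adjustment over each whole table. TMM was run on library sizes after the filter. This was decided after the counts of calls with library sizes before and after the filter had both been seen, and the calls of the other choice are given with the alternatives. DESeq2 1.42.0 with apeglm 1.24.0 was an alternative. Ratios within miRNAs (prior count 0.5, at least 50 reads in every library) were tested with limma 3.58.1. The fits were tested on simulated data. Among 10699 simulated fragments, 190 carried a log2 change of 3. Of these edgeR called 150, besides 9 unchanged fragments, and DESeq2 called 179, besides 82 unchanged fragments. Named miRNAs are the members with their leading and reference forms, the 3 miRNAs most like each and the leading and called genes of each list. Of 12 library pairs within groups 0 differed by no more than sampling noise. Alternatives were other scalings, filters, denominators and read sets, a replicate block, a covariate for the mitochondrial rRNA set and leaving out each library. Depth was 9297271 to 23123740 reads, and the spread between mice was taken as the error. Python 3.11.15, numpy 2.4.6, pandas 2.3.3, scipy 1.17.1 and matplotlib 3.10.9 were used.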

Additional observations from a re-analysis of the deposited data

Results flagged for a closer look

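Of 22 groups of 4 libraries examined (RPM of each member and the percent of 5p reads of 5 members), 3 held a library far from the others, where chance alone marks about 1 group in 20. miR-34a was at 62.7 RPM in control replicate 4, against 6.88 to 10.8 RPM in the other control libraries. This is the library with the high sums of muscle, vessel and epithelial miRNAs, whose part in the miR-34a level was not tested. miR-449b was at 11.4 RPM in control replicate 3, against 5.72 to 6.27 RPM in the other control libraries. The percent of 5p reads of miR-449a was 99.9% in control replicate 4, a difference from the other control libraries (up to 100%) that rests on a few 3p reads.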

How the results depend on the processing

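Library numbers gave no clear sign of a pairing of the mice, which so few values cannot exclude. Correlations of deviations from the group means between libraries of the same number were -0.51, 0.043, 0.53 and -0.11. Of the 4 activated libraries 1 was most like the control library of its number. With a replicate block edgeR called 0 fragments instead of 61, and 0 RNA species and lengths as before, limma called 0 isomiR ratios, and miR-34a had a log2 fold change of 0.15.

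RNA species calls were 0 in edgeR and 3 in DESeq2, and calls by miRNA and length 0 and 13, with 0 in each other setting. In every setting run 0 species, lengths, fragments or ratios of the family were called. Fragment calls went from 61 to 240 in DESeq2, 27 with library size alone, 202 and 2800 with minimums of 10 counts and of 1 count, 0 for reads that match the genome, 107 with the mitochondrial rRNA set as covariate, and 0 to 58 without 1 library. With library sizes before the filter, an alternative chosen after seeing the data, they were 52. The median log2 fold change of all miRNA lengths was 0.070 with library size alone and -0.043 with TMM.

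Of 102 refitted log2 fold changes of members 99 kept their direction and 0 passed the threshold. With 1 library left out, miR-34a went from -0.96 to 0.91 (without control replicate 4) and miR-34b from -0.092 (without activated replicate 3) to 0.27. The causes were not tested. The 24 RPM ratios under other denominators or read sets moved by less than the spread between mice. Counts of miR-449b and miR-449c, at 2.42 to 11.4 RPM, limit what could be read from them.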
